A study of Mus musculus with 71 samples.

Results

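The 10 genes described here encode the pore-forming subunits of the AMPA-type glutamate receptor (Gria1 to Gria4) and 6 of its auxiliary proteins: the cornichon proteins Cnih2 and Cnih3, the transmembrane AMPA receptor regulatory proteins (TARPs) Cacng2, Cacng3 and Cacng8, and Shisa6. They were taken by symbol, through their Ensembl identifiers, and were 10 of the 57010 genes counted. Each of the 10 passed the filter on low counts and was among the 30141 genes tested. Their values come from mRNA of the mouse hippocampus purified by pS6-TRAP, in which ribosomes that carry phosphorylated ribosomal protein S6, a mark of recent neuronal activity, are captured with an antibody and the mRNA bound to them is sequenced. The 71 mice were wild-type male C57BL/6J animals fed since weaning, and each library came from 1 mouse. They were fed normal chow ad libitum (NC ad lib), a high-fat and sugar diet ad libitum (HFS ad lib), or the latter diet with access limited to the active phase during the last weeks (HFS TRF). In a first experiment mice were taken from the home cage at zeitgeber time 3 (HC zt3) or 1 h after training in object recognition memory (ORM+1 h), and in a second experiment from the home cage at zeitgeber time 15 (HC zt15) or 12 h after training (ORM+12 h). Each of the 12 groups had 6 mice, except HFS TRF HC zt15, which had 5.

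AMPA receptors are tetramers of GluA1 to GluA4 and carry most of the fast excitatory current in the hippocampus. The GluA2 subunit, made from Gria2, sets calcium permeability, and the delivery of GluA1-containing receptors to the synapse is a classical step of long-term potentiation. Auxiliary proteins are built into the receptor in the membrane: cornichons promote its export from the endoplasmic reticulum and slow its deactivation, TARPs bind the scaffold PSD-95 and hold the receptor at the synapse, and Shisa6 limits its desensitisation.

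Libraries held between 34698914 and 62758570 counts in genes, so that even the least counted member, Gria4, had between 1139 and 2761 reads in a mouse, and the spread between mice exceeded counting error. The training label was checked on 9 immediate early genes, each of which rose at ORM+1 h on each diet by edgeR's quasi-likelihood test, with a median log2 fold change of 1.90 on NC ad lib, 1.45 on HFS ad lib and 1.81 on HFS TRF. Of the 6 markers of excitatory neurons none was at 0 in any group. The summed level of 6 markers of the choroid plexus, a secretory epithelium beside the hippocampus, exceeded 5000 CPM (counts in a gene for each 1000000 counts of the TMM-scaled library) in 19 of 71 mice, which were unevenly spread over the groups. Each call of a member by that test is given with and without these mice. In such bulk material, fewer cells of a type and less RNA per cell cannot be told apart.

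The members differed widely in level, and their order depended on the length used for a gene. On the scale of CPM per kilobase of the canonical transcript, Cnih2 had the highest median over the 71 mice (390), followed by Gria1 (162), Shisa6 (138), Cacng8 (72.1), Cnih3 (33.6), Gria2 (33.0), Cacng3 (27.0), Cacng2 (26.1), Gria3 (24.9) and Gria4 (5.98). Cnih2 (287 to 605 per kilobase) and Gria1 (126 to 211) did not overlap between mice, and neither did Gria4 (4.23 to 8.17) and any other member. The ranges of the 5 genes from Cnih3 to Gria3 overlapped, as did those of Gria1 and Shisa6 (92.5 to 175) and of Shisa6 and Cacng8 (50.6 to 98.6). Differences between members within a mouse were not tested. On the scale of all annotated exons per gene, Cnih2 (267) and Gria1 (117) were again highest and Gria4 (1.88) lowest, while Shisa6 was at 23.9 and Gria2 at 13.0.

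Group medians of a member lay close together. The ratio of the highest to the lowest group median ran from 1.18 for Gria4 to 1.72 for Cnih2. For Cnih2, Cnih3, Cacng2, Cacng3 and Cacng8 the highest group median was that of HFS TRF ORM+12 h. For Gria1 and Gria3 it was that of NC ad lib ORM+12 h, and the lowest that of HFS TRF HC zt15. Gria2 also had its lowest group median in HFS TRF HC zt15.

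The early response, ORM+1 h against HC zt3, held no change of a member that passed the test. None of the 10 members was called on NC ad lib, where 5.73% of all genes tested were, on HFS ad lib (1.23% of genes) or on HFS TRF (2.87% of genes). A call is a Benjamini-Hochberg adjusted p under 0.05 over all genes tested, by the quasi-likelihood test of edgeR. The DESeq2 Wald test also called 0. At an unadjusted p under 0.05 there were 2 of 10 members on NC ad lib, 0 of 10 on HFS ad lib and 0 of 10 on HFS TRF, where 18.5%, 13.8% and 14.4% of all genes were so placed. The median log2 fold change of the members was -0.14 on NC ad lib, -0.04 on HFS ad lib and -0.02 on HFS TRF, beside a median over all genes of 0, 0 and -0.01.

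The pore-forming subunits gave small early differences. Gria1 (ENSMUSG00000020524, GRCm39 chr11:56902153-57221080, plus strand), the GluA1 subunit, had a median of 996 CPM in NC ad lib HC zt3 (859 to 1230, n = 6) and 935 CPM at ORM+1 h (757 to 1060, n = 6). The ranges overlapped, and the log2 fold change was -0.12 (95% interval -0.30 to 0.06). For Gria1 it was -0.16 on HFS ad lib (-0.34 to 0.02) and -0.08 on HFS TRF (-0.26 to 0.10). Gria2 (ENSMUSG00000033981, GRCm39 chr3:80588757-80710538, minus strand) was at 0.02 on NC ad lib, -0.14 on HFS ad lib and 0.04 on HFS TRF, each with a standard error of 0.09. Over the 12 early values of the 4 subunits, the lowest was -0.16 and the highest 0.14, the latter for Gria4 on HFS ad lib.

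Among the auxiliary proteins, the lowest early values were on NC ad lib. Cnih3, a cornichon, had a median of 98.6 CPM in HC zt3 (89.7 to 102) and 83.7 CPM at ORM+1 h (63.4 to 94.4), and 4 of the 6 trained mice lay below all home cage mice. The log2 fold change of Cnih3 was -0.25 (SE 0.10, adjusted p = 0.152 in edgeR's quasi-likelihood test). Cacng3, a TARP of cortical and hippocampal neurons, had a median of 76.3 CPM (72.5 to 99.6) against 70.0 CPM (55 to 72.9), a log2 fold change of -0.24 (SE 0.10, adjusted p = 0.142 in the same test). Neither passed the threshold, and on the other diets these genes were nearer to 0. Cnih3 was at -0.05 on HFS ad lib and -0.10 on HFS TRF. Cacng3 was at -0.06 on HFS ad lib and -0.07 on HFS TRF. Shisa6 gave the highest early value of an auxiliary protein, 0.19 on HFS TRF (-0.01 to 0.39). Of the 13 marker lists, 4 did not overlap between HC zt3 and ORM+1 h on NC ad lib, with no marker at 0. Excitatory neuron markers summed to 10600 to 13000 CPM and 8770 to 10500 CPM, CA2 markers to 663 to 760 CPM and 570 to 634 CPM, astrocyte markers to 883 to 1120 CPM and 1890 to 3190 CPM, and endothelial markers to 13.2 to 17.0 CPM and 18.0 to 31.2 CPM. Their part in the early values on NC ad lib was not tested.

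The late response, ORM+12 h against HC zt15, held 2 changes that passed the test, both of cornichon genes on HFS TRF. There 2 of 10 members rose, where 2.46% of all genes tested were called and 1.57% were called higher. None of the 10 was called on NC ad lib (0.209% of genes) or on HFS ad lib (0.179% of genes) by edgeR's quasi-likelihood test, while the DESeq2 Wald test called Gria2 on NC ad lib and Cnih3 on HFS ad lib. At an unadjusted p under 0.05 and in the upward direction there were 8 of 10 members on HFS TRF, 4 of 10 on NC ad lib and 2 of 10 on HFS ad lib, where 10.5%, 7.67% and 7.94% of all genes were so placed. On HFS ad lib 1 member, Gria4, was placed downward (9.08% of genes). The members' median log2 fold change was 0.27 on HFS TRF, 0.16 on NC ad lib and 0.04 on HFS ad lib, beside a median over all genes of 0 on each diet. The log2 fold change was above 0 for 10 of 10 members on HFS TRF (44.8% of genes), 10 of 10 on NC ad lib (45.6%) and 6 of 10 on HFS ad lib (47.3%). Without the 19 mice above 5000 CPM of choroid plexus markers it was above 0 for 10 of 10 members on HFS TRF, 6 of 10 on NC ad lib and 7 of 10 on HFS ad lib, no member was called on any diet, and 3, 1 and 2 members were higher at an unadjusted p under 0.05.

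**Figure D1:**
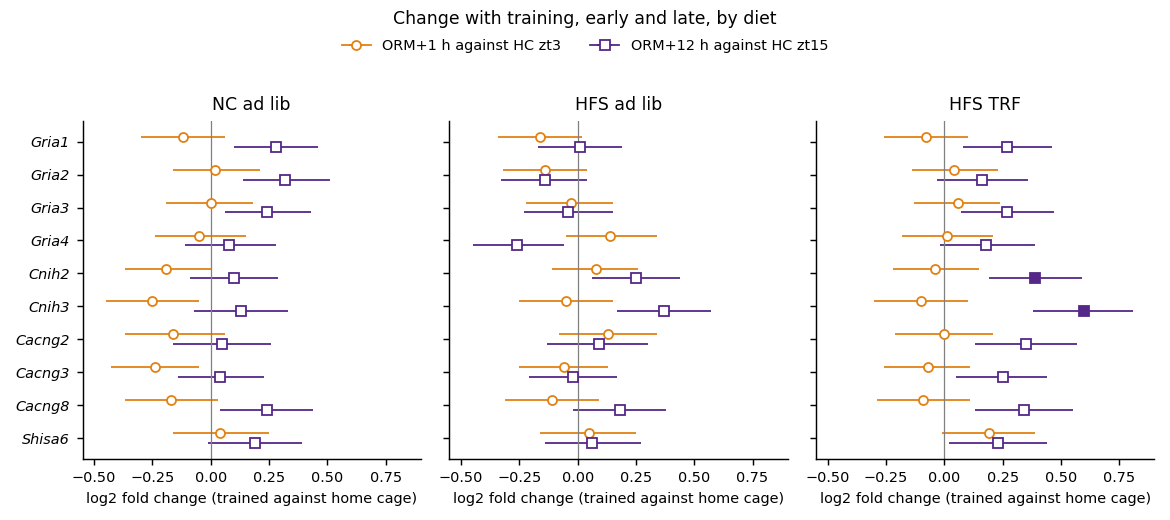
Log2 fold change of each member (vertical axis) with training, as trained against home cage mice (horizontal axis), for the early comparison (circles) and the late comparison (squares) on the 3 diets, with bars for the 95% interval and filled symbols where the adjusted p was under 0.05. Only Cnih2 (0.39) and Cnih3 (0.60) in the late comparison on HFS TRF are filled, and no early value is.

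Cnih3 rose in the late comparison on HFS TRF. In HC zt15 the 5 mice held 73.7, 82.2, 84.5, 86.5 and 97.3 CPM, and at ORM+12 h the 6 mice ran from 119 to 143 CPM with a median of 128 CPM. The lowest trained mouse lay above the highest home cage mouse, a separation in the upward direction shared by 1.18% of all genes tested. The means were 84.8 ± 8.51 CPM (SD, n = 5) and 128 ± 8.70 CPM (SD, n = 6), and the log2 fold change was 0.60 (SE 0.11, 95% interval 0.38 to 0.81), or 1.51-fold, with an adjusted p of 0.00476 in edgeR's quasi-likelihood test. The call held in 11 of 11 fits that each left out 1 mouse, with adjusted p between 0.00423 and 0.0491.

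Cnih2, the more abundant cornichon gene of the hippocampus, rose as well. In HC zt15 the 5 mice on HFS TRF held 574, 662, 668, 698 and 761 CPM, and at ORM+12 h the 6 mice ran from 745 to 955 CPM with a median of 898 CPM. In the trained group, 5 of 6 mice lay above all home cage mice. The means were 673 ± 67.5 CPM (SD, n = 5) and 881 ± 80.0 CPM (SD, n = 6), a log2 fold change of 0.39 (SE 0.10, 95% interval 0.19 to 0.59), or 1.31-fold, with an adjusted p of 0.0265 in edgeR's quasi-likelihood test. The call on Cnih2 was lost without HFS TRF HC zt15 replicate 1 (adjusted p = 0.118 in edgeR), without HFS TRF HC zt15 replicate 4 (0.0806) and without HFS TRF ORM+12 h replicate 3 (0.0541).

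RNA of the choroid plexus moved with this comparison, and its part in the result was not tested beyond the fits given here. Its 6 markers, none of them at 0, summed to 393 to 18600 CPM in HFS TRF HC zt15 (median 7760) and to 186 to 10500 CPM in HFS TRF ORM+12 h (median 391). The sum exceeded 5000 CPM in 3 of the 5 home cage mice and 1 of the 6 trained mice. With the log2 marker sum as a covariate, Cnih3 was at 0.56 (SE 0.11, adjusted p = 0.0122 in edgeR) and Cnih2 at 0.35 (SE 0.10, adjusted p = 0.0576). Without the 19 mice above 5000 CPM, which left 2 home cage and 5 trained mice on HFS TRF and 1 gene called in that comparison, Cnih3 was at 0.47 (SE 0.15, adjusted p = 0.352 in edgeR) and Cnih2 at 0.35 (SE 0.14, adjusted p = 0.415).

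Other cell type markers moved with it too, and their part in the result was not tested. The 6 markers of myelinating oligodendrocytes, none at 0, summed to 854 to 1110 CPM in HC zt15 and to 1140 to 1330 CPM at ORM+12 h on HFS TRF, without overlap. This was the only 1 of the 13 marker lists without overlap. With overlap, those of excitatory neurons summed to 10300 to 12300 CPM and 11700 to 15200 CPM. The 6 of the dentate gyrus, also with overlap, summed to 322 to 398 CPM (median 353) and 366 to 487 CPM (median 433).

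**Figure D2:**
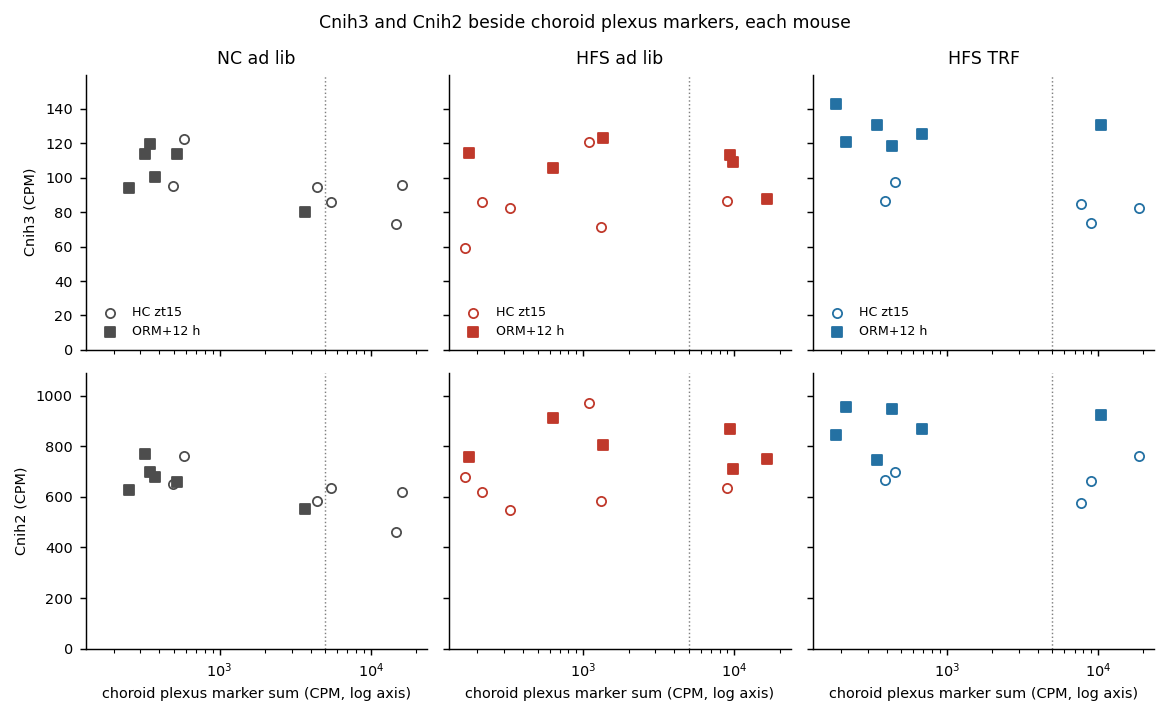
CPM of Cnih3 (upper panels) and Cnih2 (lower panels) against the summed CPM of 6 choroid plexus markers (log axis) in each mouse of the second experiment, by diet, with open circles for HC zt15, filled squares for ORM+12 h and a dotted line at 5000 CPM. On HFS TRF the trained mice held 119 to 143 CPM of Cnih3 and the home cage mice 73.7 to 97.3 CPM. Only 1 trained mouse lay above the dotted line and only 2 home cage mice below it.

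On the ad libitum diets the cornichon genes did not pass the test in the late comparison. On HFS ad lib, Cnih3 had a median of 84.3 CPM in HC zt15 (59.2 to 121, n = 6) and 111 CPM at ORM+12 h (87.6 to 123, n = 6). Home cage replicate 6 held 121 CPM, while the other 5 home cage mice reached 86.3 CPM at most and lay below each trained mouse. The log2 fold change of Cnih3 on HFS ad lib was 0.37 (SE 0.10, 95% interval 0.17 to 0.57, adjusted p = 0.103 in edgeR's quasi-likelihood test). Cnih2 on HFS ad lib was at 0.25 (0.06 to 0.44, adjusted p = 0.206 in edgeR). Without replicate 6 of HFS ad lib HC zt15, the call was made for Cnih3 (log2 fold change 0.50, adjusted p = 0.00627 in edgeR) and for Cnih2 (0.39, adjusted p = 0.0129).

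On NC ad lib the late values of the cornichons were smaller. Cnih3 had a median of 95 CPM in HC zt15 (72.9 to 122) and 107 CPM at ORM+12 h (80.1 to 119), a log2 fold change of 0.13 (-0.07 to 0.33). Cnih2 had a median of 628 CPM (461 to 761) and 669 CPM (552 to 768), a log2 fold change of 0.10 (-0.09 to 0.29). The groups overlapped widely for both genes. Choroid plexus markers exceeded 5000 CPM in 3 of 6 home cage and 0 of 6 trained mice on NC ad lib, and without those mice the log2 fold changes were -0.01 for each gene. On HFS ad lib they did so in 1 of 6 home cage and 3 of 6 trained mice, and without them Cnih3 was at 0.45 (adjusted p = 0.162 in edgeR) and Cnih2 at 0.29 (0.374).

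The late change of the cornichons did not pass the test of a difference between diets. The change of Cnih3 on HFS TRF minus that on HFS ad lib was 0.23 (95% interval -0.06 to 0.52, adjusted p = 0.533 in edgeR), and for Cnih2 it was 0.14 (-0.13 to 0.41, adjusted p = 0.779). The change on HFS ad lib minus that on NC ad lib was 0.23 for Cnih3 (-0.05 to 0.52, adjusted p = 0.399 in edgeR) and 0.15 for Cnih2 (-0.11 to 0.41, adjusted p = 0.629). Each interval ran from below 0 to 0.41 or above. No member was called by edgeR in any of the 4 contrasts of diet by training, of which HFS ad lib against NC ad lib at ORM+12 h called 0.106% of all genes and the other 3 called 0%. At an unadjusted p under 0.05 there were 4 of 10 members lower in that contrast, 3 of 10 higher in HFS TRF against HFS ad lib at ORM+12 h and 0 of 10 in each contrast at ORM+1 h, where 8.78%, 6.02%, 6.25% and 5.59% of all genes were so placed. The DESeq2 Wald test called 1, Gria2. With the choroid plexus covariate, 3 and 1 members in the 2 contrasts at ORM+12 h had an unadjusted p under 0.05 in edgeR, in either direction. Without the mice above 5000 CPM these were 2 and 0. HFS ad lib minus NC ad lib at ORM+12 h was then above 0 for 6 of 10 members, against 3 of 10 with all mice.

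**Figure D3:**
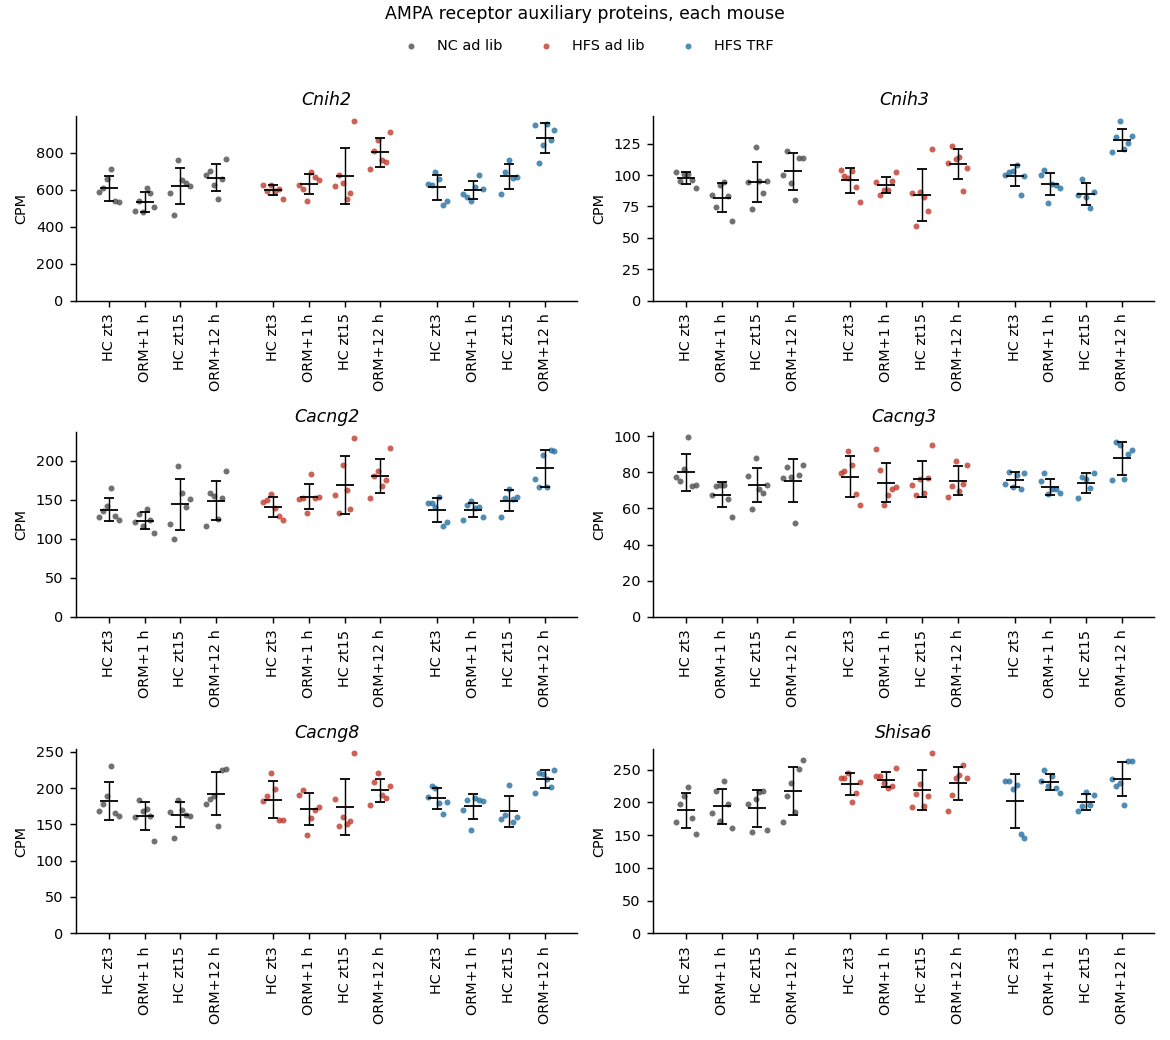
CPM of the 6 auxiliary protein genes (vertical axes, starting at 0) in each mouse, by condition within diet (horizontal axes), with points for mice and black lines for mean and SD. The 6 HFS TRF ORM+12 h mice sit at 119 to 143 CPM of Cnih3, above the 5 mice of HFS TRF HC zt15 (73.7 to 97.3), and 1 mouse of HFS ad lib HC zt15 stands at the top of its group for Cnih2 (972).

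The cornichon genes are shown with the sequence before their starts, since they were the pair called together. Cnih2 (ENSMUSG00000024873) lies on the minus strand of chromosome 19 (GRCm39, chr19:5142891-5148672) and Cnih3 (ENSMUSG00000026514) on the plus strand of chromosome 1 (GRCm39, chr1:181180024-181289051). The 250 bases before the outermost annotated start, which hold no annotated exon, are printed 5′ to 3′ on the strand of the gene, with matches to searched motifs in capitals. Those of Cnih2 are at chr19:5148673-5148922 and those of Cnih3 at chr1:181179774-181180023, both read from GRCm39 with starts of GENCODE vM39.
Cnih2: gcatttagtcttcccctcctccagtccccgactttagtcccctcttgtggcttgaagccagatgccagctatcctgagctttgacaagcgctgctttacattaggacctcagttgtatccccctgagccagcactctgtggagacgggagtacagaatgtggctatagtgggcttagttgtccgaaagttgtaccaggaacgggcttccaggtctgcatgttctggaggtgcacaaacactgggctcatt
Cnih3: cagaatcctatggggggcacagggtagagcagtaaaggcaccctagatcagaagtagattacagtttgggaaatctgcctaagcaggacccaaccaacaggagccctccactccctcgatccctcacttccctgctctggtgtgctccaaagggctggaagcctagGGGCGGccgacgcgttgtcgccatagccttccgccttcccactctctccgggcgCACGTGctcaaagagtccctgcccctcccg

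The letters searched on both strands were TGACGTCA (the cAMP response element), GCGNGGGCG (the EGR site), CACGTG (the E-box) and GGGCGG (the GC box). Cnih2 held none of them in this window. Cnih3 held 1 E-box and 1 GC box, and no other of the 10 members held either. Among the 29788 genes tested with such a window, 5.4% held the E-box, 27.4% the GC box, 1.05% the cAMP response element and 3.34% the EGR site. The guanine and cytosine content was 52.8% for Cnih2 and 60.0% for Cnih3. A match is a description of letters and not a measured binding site.

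The TARP genes had log2 fold changes above 0 in the late comparison on HFS TRF, and none passed the test. Cacng2, also called stargazin, held 128, 151, 152, 153 and 163 CPM in the 5 mice of HFS TRF HC zt15 and 166 to 213 CPM (median 192, n = 6) at ORM+12 h. The groups did not overlap, a separation in the upward direction shared by 1.18% of all genes tested. The log2 fold change of Cacng2 was 0.35 (95% interval 0.13 to 0.57, adjusted p = 0.0735 in edgeR's quasi-likelihood test). Cacng8, the TARP most closely tied to the hippocampus, held 153, 158, 160, 163 and 204 CPM in HC zt15 and 193 to 225 CPM (median 215) at ORM+12 h, with 4 of 6 trained mice above all home cage mice. Its log2 fold change was 0.34 (0.13 to 0.55, adjusted p = 0.0633 in edgeR). Both TARPs were called by the DESeq2 Wald test, with adjusted p = 0.0358 for Cacng2 and 0.0288 for Cacng8. Cacng3 was at 0.25 on HFS TRF (0.05 to 0.44, adjusted p = 0.146 in edgeR). Without the mice above 5000 CPM of choroid plexus markers, Cacng2 was at 0.28 (adjusted p = 0.540 in edgeR), Cacng8 at 0.37 (0.393) and Cacng3 at 0.14 (0.739).

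On the ad libitum diets the late TARP values lay between -0.02 and 0.24. Cacng8 was at 0.24 on NC ad lib (0.04 to 0.44) and 0.18 on HFS ad lib (-0.02 to 0.38). Cacng2 was at 0.05 on NC ad lib and 0.09 on HFS ad lib, and Cacng3 at 0.04 and -0.02. The HFS ad lib values include home cage replicate 6, which held 248 CPM of Cacng8 (next mouse 185) and 95 CPM of Cacng3 (next mouse 76.9). Shisa6, which is unrelated in sequence to the TARPs, was at 0.19 on NC ad lib (-0.01 to 0.39), 0.06 on HFS ad lib (-0.14 to 0.27) and 0.23 on HFS TRF (0.02 to 0.44). With the mice above 5000 CPM left out, Shisa6 was at 0.08, 0.09 and 0.17 in the same order, and on NC ad lib Cacng2 was at -0.08, Cacng3 at -0.07 and Cacng8 at 0.14.

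None of the 4 pore-forming subunits was called in the late comparison by edgeR, and Gria2 was called by the DESeq2 Wald test on NC ad lib (adjusted p = 0.0446). Gria2 had a median of 335 CPM in NC ad lib HC zt15 (232 to 356, n = 6) and 401 CPM at ORM+12 h (353 to 448, n = 6), with 5 of 6 trained mice above all home cage mice. On HFS ad lib its median was 357 CPM (330 to 378) in HC zt15 and 326 CPM (268 to 374) at ORM+12 h, with 4 of 6 trained mice below all home cage mice. The log2 fold change of Gria2 was 0.32 on NC ad lib (0.14 to 0.51, adjusted p = 0.115 in edgeR's quasi-likelihood test), -0.14 on HFS ad lib (-0.33 to 0.04) and 0.16 on HFS TRF (-0.03 to 0.36). For this change, HFS ad lib minus NC ad lib gave -0.47 (95% interval -0.73 to -0.21, adjusted p = 0.0786 in edgeR). HFS TRF minus HFS ad lib gave 0.31 for Gria2 (0.04 to 0.57, adjusted p = 0.279 in edgeR). Without the mice above 5000 CPM of choroid plexus markers, the late value of Gria2 was 0.24 on NC ad lib (adjusted p = 0.507 in edgeR), -0.10 on HFS ad lib and 0.15 on HFS TRF. On NC ad lib, excitatory neuron markers summed to 10100 to 11600 CPM in HC zt15 and 12100 to 13500 CPM at ORM+12 h, and the 6 dentate gyrus markers to 329 to 443 CPM and 444 to 538 CPM, each without overlap, and their part in the result was not tested.

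For Gria1, Gria3 and Gria4 the fitted late value was lowest on HFS ad lib. Gria1 had a median of 906 CPM in NC ad lib HC zt15 (787 to 947) and 1110 CPM at ORM+12 h (863 to 1230), a log2 fold change of 0.28 (0.10 to 0.46). On HFS TRF, Gria1 held 787, 808, 847, 896 and 1010 CPM in HC zt15 and 857 to 1240 CPM (median 1050) at ORM+12 h, a log2 fold change of 0.27 (0.08 to 0.46). In both pairs 4 of 6 trained mice were above all home cage mice, while on HFS ad lib the log2 fold change of Gria1 was 0.01 (-0.17 to 0.19). Without the mice above 5000 CPM, Gria1 was at 0.20 on NC ad lib (adjusted p = 0.570 in edgeR), 0.06 on HFS ad lib and 0.26 on HFS TRF (adjusted p = 0.508). Gria3, an X-linked subunit gene, was at 0.24 on NC ad lib, -0.04 on HFS ad lib and 0.27 on HFS TRF, and its value on HFS ad lib was 0.02 without the mice above 5000 CPM of choroid plexus markers. Gria4, the subunit most typical of interneurons among these 4, was at 0.08, -0.26 and 0.18 in the same order. In the late comparison on HFS ad lib, 0 members were lower at an unadjusted p under 0.05 in edgeR without the mice above 5000 CPM, and 1 was with the choroid plexus covariate. HFS ad lib minus NC ad lib was -0.27 for Gria1, -0.28 for Gria3 and -0.34 for Gria4 (adjusted p = 0.246, 0.235 and 0.166 in edgeR). HFS TRF minus HFS ad lib, which shares the HFS ad lib mice with that contrast, gave 0.31 for Gria3 and 0.44 for Gria4 (adjusted p = 0.274 and 0.157 in edgeR).

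**Figure D4:**
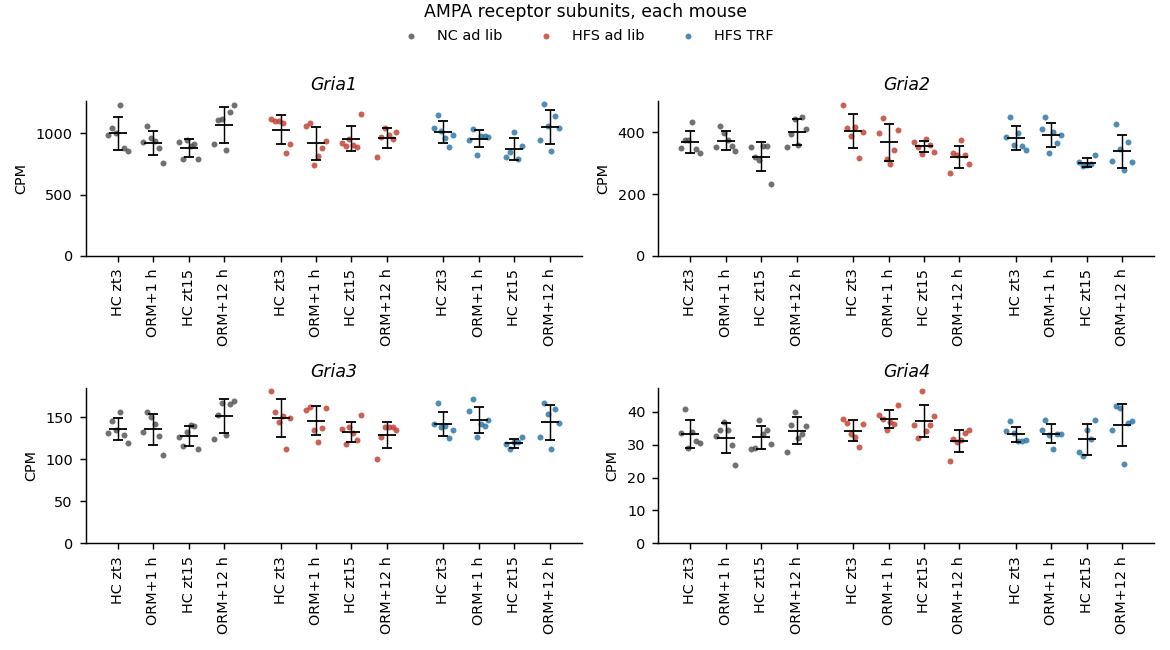
CPM of the 4 pore-forming subunit genes (vertical axes, starting at 0) in each mouse, by condition within diet (horizontal axes), with points for mice and black lines for mean and SD. Gria2 at ORM+12 h runs from 353 to 448 CPM on NC ad lib and from 268 to 374 CPM on HFS ad lib, and the ranges of most neighbouring groups overlap.

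The late response was also set against the early one within each diet. Late minus early was above 0 for 10 of 10 members on NC ad lib (median 0.29) and on HFS TRF (median 0.33), where 48.8% and 49.0% of all genes were, and for 6 of 10 on HFS ad lib (median 0.03), where 49.8% of all genes were. On HFS TRF, 1 member was called (4.53% of genes), Cnih3 at 0.70 (SE 0.15, 95% interval 0.40 to 0.99, adjusted p = 0.00235 in edgeR's quasi-likelihood test). On NC ad lib, 1 member was called (7.13% of genes), Gria1 at 0.40 (SE 0.13, 0.15 to 0.66, adjusted p = 0.0460 in edgeR). On HFS ad lib none was (0.916% of genes), although at an unadjusted p under 0.05 Gria4 was placed downward at -0.40 (7.91% of genes) and 2 members upward (6.62% of genes). Without the mice above 5000 CPM of choroid plexus markers, 0 members were so placed downward and 1 upward.

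These calls differed in how much they rested on single mice. Cnih3 on HFS TRF was called in 23 of 23 fits that each left out 1 mouse, and with the choroid plexus covariate (0.68, adjusted p = 0.00170 in edgeR), and it was not called without the mice above 5000 CPM (0.50, adjusted p = 0.224). Gria1 on NC ad lib was called in 11 of 24 such fits, with adjusted p between 0.0190 and 0.116 in edgeR, and was called neither with the covariate (0.33, adjusted p = 0.155) nor without those mice (0.26, adjusted p = 0.426). On NC ad lib, excitatory neuron markers were lower at ORM+1 h and higher at ORM+12 h than in the home cage, each without overlap. The other lists without overlap there were CA2 (lower), astrocyte and endothelial (higher) early and dentate gyrus (higher) late. On HFS TRF they were microglia (lower) early and myelinating oligodendrocyte (higher) late. The part of these markers in the calls was not tested. The early and the late response come from separate experiments at separate times of day, so time after training and experiment cannot be told apart in this contrast.

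In the home cage, HC zt15 against HC zt3, 1 of 30 values passed the test. Gria2 on HFS TRF held 291, 293, 296, 305 and 325 CPM in HC zt15 and 342 to 448 CPM in HC zt3 (median 371, n = 6), without overlap. Its log2 fold change was -0.33 (SE 0.10, 95% interval -0.53 to -0.14, adjusted p = 0.0140 in edgeR's quasi-likelihood test), in a comparison that called 14.2% of all genes, and 6.44% of genes were separated in that direction. On the other diets, which called 11.7% (NC ad lib) and 10.4% (HFS ad lib) of genes, Gria2 was at -0.20 and -0.19 (adjusted p = 0.169 and 0.189 in edgeR). The call was lost without HFS TRF HC zt3 replicate 2 (adjusted p = 0.0599 in edgeR). It held with the choroid plexus covariate (-0.31, adjusted p = 0.0109 in edgeR) and was lost without the mice above 5000 CPM (-0.34, adjusted p = 0.145). The 5 markers of CA1 neurons summed to 709 to 830 CPM in HC zt3 and 474 to 621 CPM in HC zt15 on HFS TRF, and the 6 of astrocytes to 666 to 1530 CPM and 1860 to 2780 CPM, each without overlap and with no marker at 0, and their part in the result was not tested. Gria1 was at -0.21 and Gria3 at -0.25 on HFS TRF, without a call. The effect of zeitgeber time and that of the experiment cannot be told apart here.

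Between diets at a matched condition, 1 of 80 values passed the test. Gria2 at ORM+12 h was lower on HFS ad lib (320 ± 36.0 CPM, SD, n = 6) than on NC ad lib (401 ± 41.0 CPM, SD, n = 6), with 5 of 6 HFS ad lib mice below all NC ad lib mice. The log2 fold change was -0.32 (95% interval -0.51 to -0.14, adjusted p = 0.0479 in edgeR's quasi-likelihood test), where 2.27% of all genes were called, and the call was kept in 2 of 12 fits that left out 1 mouse. It was made neither with the choroid plexus covariate (-0.26, adjusted p = 0.103 in edgeR) nor without the mice above 5000 CPM (-0.25, adjusted p = 0.325). The 6 dentate gyrus markers, none at 0, summed to 336 to 440 CPM on HFS ad lib and 444 to 538 CPM on NC ad lib, without overlap, and their part in the result was not tested. Cnih2 in the same comparison was at 0.27 (0.08 to 0.46, adjusted p = 0.103 in edgeR) and Cacng2 at 0.27 (0.06 to 0.48, adjusted p = 0.148). HFS ad lib against NC ad lib gave no call of a member in the other 3 conditions, where between 0% and 0.063% of genes were called, and among these values Cacng2 at ORM+1 h was the highest (0.32, 0.11 to 0.54, adjusted p = 0.496 in edgeR). At an unadjusted p under 0.05, 1, 4 and 2 members were higher in HC zt3, ORM+1 h and HC zt15, as were 4.65%, 5.08% and 5.78% of genes. None was lower. Without the mice above 5000 CPM, 1, 1 and 1 members were under that threshold, in either direction. HFS TRF against HFS ad lib gave none in any of the 4 conditions by edgeR or the DESeq2 Wald test, where between 0% and 0.00664% of genes were called by edgeR and 0, 0, 2 and 3 members had an unadjusted p under 0.05 in HC zt3, ORM+1 h, HC zt15 and ORM+12 h, as did 5.89%, 6.54%, 15.6% and 12.3% of genes. Gria2 in HC zt15 was lower on HFS TRF (302 ± 14.0 CPM, SD, n = 5) than on HFS ad lib (354 ± 18.6 CPM, SD, n = 6) without overlap, a separation shared by 0.345% of genes, with a log2 fold change of -0.23 (-0.42 to -0.04, adjusted p = 0.277 in edgeR).

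Relative levels were described as the log2 ratio of CPM in each mouse, with no test. In the ratio of Gria1 to Gria2, gene length cancels between groups. The lowest group median of this ratio was 1.30 (HFS TRF ORM+1 h, 1.21 to 1.42). The highest was 1.63 (HFS TRF ORM+12 h, 1.54 to 1.78). Both groups were picked as the extremes of the 12 medians, so their lack of overlap is not evidence of a difference. They also belong to different experiments, sampled at different hours. The range of HFS TRF ORM+12 h lay within that of HFS TRF HC zt15 (1.40 to 1.79). At ORM+12 h the median ratio was 1.57 on HFS ad lib (1.39 to 1.78) and 1.38 on NC ad lib (1.27 to 1.59). In HC zt15 it was 1.38 on NC ad lib (1.31 to 1.77), 1.33 on HFS ad lib (1.26 to 1.79) and 1.46 on HFS TRF (1.40 to 1.79), and the highest mouse of each of these groups reached 1.77 to 1.79. The ratio of Gria3 to Gria2 had group medians from -1.48 (HFS ad lib HC zt15) to -1.24 (HFS TRF ORM+12 h), and that of Gria4 to Gria2 from -3.57 (HFS TRF ORM+1 h) to -3.22 (HFS TRF HC zt15). The ratio of Cnih3 to Cnih2 had its lowest group medians in HC zt15, at -2.95 on HFS ad lib (-3.52 to -2.73) and -2.95 on HFS TRF (-3.21 to -2.77), against -2.63 and -2.62 in HC zt3. On NC ad lib the median was -2.68 in HC zt15 and -2.62 in HC zt3, and it was lower, at -2.75, at both ORM+1 h and ORM+12 h. Zeitgeber time and experiment cannot be told apart in these ratios. The ratio of Cacng2 to Cacng8 ran from a median of -0.49 in HFS TRF HC zt3 to -0.10 in HFS TRF HC zt15.

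**Figure D5:**
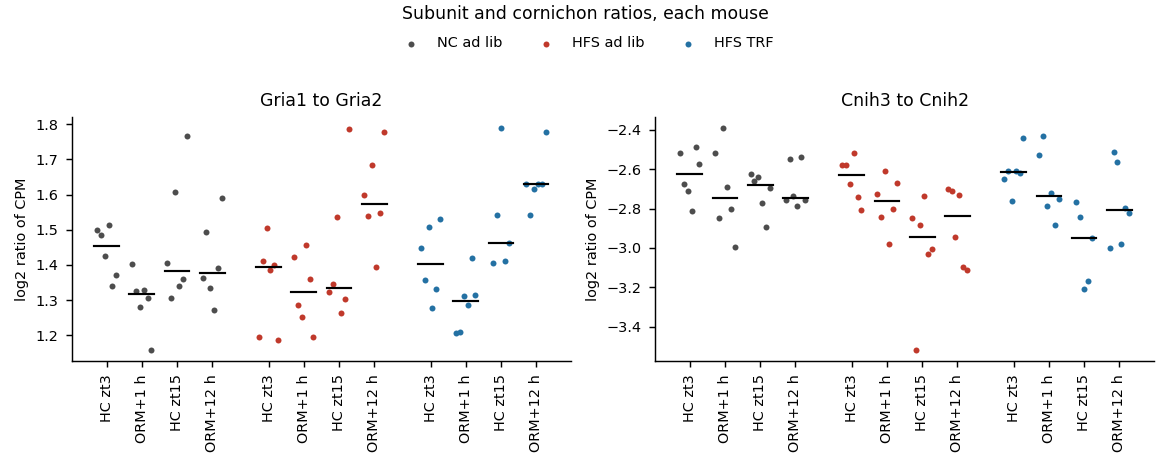
Log2 ratio of CPM (vertical axes) of Gria1 to Gria2 and of Cnih3 to Cnih2 in each mouse, by condition within diet (horizontal axes), with points for mice and black lines for the group median. The highest median of the first ratio is 1.63 in HFS TRF ORM+12 h and the lowest is 1.30 in HFS TRF ORM+1 h.

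The members did not all vary together between mice. Over the log2 CPM of the 71 mice, which share group and library composition, Pearson's r was 0.824 between Gria2 and Gria3, 0.817 between Gria1 and Gria3 and 0.663 between Gria1 and Gria2. Among auxiliary proteins it was 0.844 between Cnih2 and Cacng2, 0.792 between Cacng3 and Cacng8 and 0.662 between Cnih2 and Cnih3. Gria1 was at 0.826 with Cacng8, while Gria2 was at -0.271 with Cnih2 and -0.160 with Cacng2.

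The genes most like a member were found over the same mice among 14724 genes with an average log2 CPM above 0. For Cnih2 they were Dlg4 (r = 0.941), which encodes PSD-95, Agap2 (0.937) and Gng7 (0.934). For Cnih3 they were the potassium channel genes Kcnj4 (0.847) and Kcnh3 (0.846), and Olfm1 (0.834), which encodes a secreted protein that binds AMPA receptors. For Gria1 they were Atrn (0.910), Dpp6 (0.910) and Nell2 (0.905). For Gria2 they were Chl1 (0.911), Atp2b1 (0.887) and Grm5 (0.884). Adam22, a synaptic receptor of Lgi proteins, was first for both Gria3 (0.913) and Gria4 (0.746), followed by Slc24a2 (0.889) and St8sia3 (0.871) for Gria3 and by Opcml (0.744) and Dpp10 (0.736) for Gria4. For Cacng2 they were Kcnc1 (0.959), Scrt1 (0.948) and Tafa5 (0.925). For Cacng3 they were Thy1 (0.820), Slc45a1 (0.809) and Vstm2l (0.806), and for Cacng8 Plppr2 (0.908), Smpd3 (0.907) and Wscd2 (0.901). For Shisa6 they were Susd6 (0.844), Golm1 (0.813) and Frrs1l (0.809), the last an endoplasmic reticulum protein of AMPA receptor assembly.

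Related genes of the synapse were counted from lists. Among 21 other AMPA receptor auxiliary and secreted partners, 5 rose in the late comparison on HFS TRF, where 1.57% of all genes were called higher, and none fell, with a median log2 fold change of 0.27. The 3 with the smallest adjusted p in edgeR were Shisa9 at 0.56 (adjusted p = 0.00934), a further Shisa family protein, Olfm1 at 0.41 (0.0183) and Cacng7 at 0.46 (0.0388), an atypical TARP. The choroid plexus, oligodendrocyte, excitatory neuron and dentate gyrus markers given above for Cnih2 and Cnih3 moved with this comparison. Their part in these changes was not tested beyond the fits given. With the choroid plexus covariate, which called 201 genes in all, 2 of the 21 were called, and without the mice above 5000 CPM, where 1 gene in all was, none was. Shisa9 was then at 0.47 (adjusted p = 0.357 in edgeR), Olfm1 at 0.40 (0.358) and Cacng7 at 0.40 (0.419). In the other 2 late comparisons none of the 21 was called by edgeR, with 9 higher on NC ad lib (7.67% of genes) and 2 higher (7.94%) and 2 lower (9.08%) on HFS ad lib at an unadjusted p under 0.05. With the mice above 5000 CPM left out, 1 was so placed on NC ad lib, upward, and 2 higher and 1 lower on HFS ad lib. The late change did not pass the test of a difference between diets for any of the 21. The smallest adjusted p in edgeR was 0.143 for HFS TRF minus HFS ad lib and 0.0817 for HFS ad lib minus NC ad lib. HFS TRF minus NC ad lib was not tested. In the early comparison the secreted pentraxin Nptx2, which clusters AMPA receptors, rose on HFS ad lib (0.75, adjusted p = 0.0147 in edgeR) and on HFS TRF (0.81, adjusted p = 0.00348), and Prrt1 fell by 0.28 on NC ad lib (adjusted p = 0.0185). In this order 0.74%, 2.24% and 1.7% of genes were called in the same direction. Without the mice above 5000 CPM Nptx2 was called on HFS TRF (0.89, adjusted p = 0.0151 in edgeR) but not on HFS ad lib (0.74, adjusted p = 0.141), and Prrt1 was not (-0.30, adjusted p = 0.0563). On NC ad lib none of the 21 was called higher early, and the highest value was 0.42. None was called in a contrast of diet by training at ORM+1 h, with a smallest adjusted p of 0.836 in edgeR for HFS ad lib minus NC ad lib. Excitatory neuron, CA2, astrocyte and endothelial markers did not overlap early on NC ad lib, as given above. Their part in the change of Prrt1 was not tested.

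Among 24 genes of the AMPA receptor scaffold and its traffic, 4 rose in the late comparison on HFS TRF (1.57% of genes) and none fell, with a median of 0.02. They included Epb41l1 at 0.37 (adjusted p = 0.0160 in edgeR), a cytoskeletal protein that binds GluA1, Dlg4 at 0.38 (0.0162) and Shank1 at 0.61 (0.0200), a postsynaptic scaffold. Of the 24, 3 were called with the choroid plexus covariate and none without the mice above 5000 CPM, where Epb41l1 was at 0.33 (adjusted p = 0.352 in edgeR), Dlg4 at 0.29 (0.419) and Shank1 at 0.72 (0.309). In the early comparison Arc and Homer1, activity-induced genes whose products act on AMPA receptor and metabotropic receptor traffic, rose on each diet. On NC ad lib Arc was at 1.76 and Homer1 at 0.88, on HFS ad lib they were at 1.38 and 1.04, and on HFS TRF at 1.96 and 0.99. These calls held without the mice above 5000 CPM. On NC ad lib, 2 of the 24 fell early (1.7% of genes), among them Camk2a (-0.45, adjusted p = 0.000889 in edgeR), which encodes a subunit of the kinase that phosphorylates GluA1 and is itself 1 of the 6 excitatory neuron markers. The sum of those markers, which was lower at ORM+1 h on NC ad lib, is given above with those of the other cell types, and their part in this change was not tested.

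The other glutamate receptors were counted in the same way. Of 7 NMDA receptor genes, none was called in a late comparison by edgeR, with 4 placed upward and 0 downward at an unadjusted p under 0.05 on HFS TRF (10.5% of genes were upward). Grin2c rose in the early comparison on NC ad lib (1.32, adjusted p = 0.000672 in edgeR) and HFS TRF (1.11, adjusted p = 0.0101), where 4.03% and 2.24% of genes were called higher. On HFS ad lib none of the 7 was called early. The highest value there was 0.79, and 1 gene was higher at an unadjusted p under 0.05 (7.07% of genes). Of 9 genes of kainate and delta receptors and the kainate receptor partners Neto1 and Neto2, 2 rose late on HFS TRF (1.57% of genes), where the median was 0.28, Grid1 at 0.39 (adjusted p = 0.0253 in edgeR) and Grik5 at 0.56 (0.0273). Of 7 metabotropic receptor genes, Grm2 rose late on HFS TRF (0.67, adjusted p = 0.00604 in edgeR, 1.57% of genes). Grm3, a receptor also of astrocytes, rose early on NC ad lib (1.48, adjusted p = 4.52e-05 in edgeR) and HFS TRF (1.23, adjusted p = 0.00142). On HFS ad lib none of the 7 was called early, the highest value was 0.67, and 1 gene was higher at an unadjusted p under 0.05. No gene of the scaffold, NMDA, kainate and delta or metabotropic receptor lists was called in a contrast of diet by training at ORM+1 h or ORM+12 h. For HFS TRF minus HFS ad lib at ORM+12 h the smallest adjusted p in edgeR was 0.155, 0.42, 0.217 and 0.327 in this order. Without the mice above 5000 CPM none of these late calls was made, with adjusted p from edgeR of 0.433 for Grid1, 0.357 for Grik5 and 0.221 for Grm2, and 1 NMDA receptor gene stayed under an unadjusted p of 0.05, while the early calls of Grin2c and Grm3 were made on both diets. Astrocyte markers summed to 666 to 1530 CPM in HC zt3 and 1430 to 2630 CPM at ORM+1 h on HFS TRF, and on NC ad lib they did not overlap, as given above. Microglia markers on HFS TRF summed to 51.4 to 58.0 CPM in HC zt3 and 32.8 to 46.2 CPM at ORM+1 h, without overlap. The part of these cell types in the early changes on HFS TRF and of Grin2c and Grm3 on NC ad lib was not tested.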

How the data were processed

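Raw read counts per gene were used as deposited by the authors, for 71 mice in 12 groups read from the labels. Per the labels and the study's methods, reads were trimmed with Trim Galore 0.6.7 (cutadapt 3.4), aligned to GRCm39 with HISAT2 2.2.0 and counted with featureCounts of Subread 2.0.3. The labels also list mm9, with no role. The strand setting of the count and the annotation release are not given in the sources used here, so reads of an antisense or overlapping transcript may be held in a member's count. Symbols, coordinates and lengths are from GENCODE vM39. Titles of the HFS TRF mice also carry the words ad libitum, and they were grouped by the diet named there, as in the diet field.

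Genes with at least 10 counts in total were tested with edgeR 4.0.16 (R 4.3.3): TMM normalization, 1 model of the 12 groups, glmQLFit and glmQLFTest, 24 contrasts, and Benjamini-Hochberg adjustment over all genes tested within a contrast, called at an adjusted p under 0.05. The study's methods name DESeq2, and the DESeq2 1.42.0 Wald test was an alternative. Other alternatives were the size factors of DESeq2, filters of at least 1 count in total and of filterByExpr, only the groups compared, a replicate block, a replicate block within condition, and each mouse left out in turn. Fits were tested on simulated data. CPM are counts divided by the TMM-scaled library in units of 1000000, with a prior count of 2 on the log2 scale. The 95% intervals come from the SE by the normal approximation. P-values measure the spread between mice. No 2 libraries of a group were alike within sampling noise.

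The members and lists were chosen with earlier results of these data known. Named are the 10 members, the 3 genes with average log2 CPM above 0 most like each by Pearson's r and at most 3 called genes per list and training comparison. Sums of 13 marker lists were compared between groups, and lists without overlap are given for comparisons that called a member or related gene. A choroid plexus covariate and the omission of mice above 5000 CPM of its markers were chosen after seeing the data.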

Additional observations from a re-analysis of the deposited data

Results flagged for a closer look

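Of 120 groups of a member's CPM values, 11 had 1 mouse far from the rest, by a gap test that flags about 1 in 20 groups by chance. HFS ad lib HC zt15 replicate 6 was the highest of its 6 mice by such a gap for 4 members. It held 1160 CPM of Gria1 (next mouse 956), 972 CPM of Cnih2 (678), 95 CPM of Cacng3 (76.9) and 248 CPM of Cacng8 (185).

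The other 7 were spread over 6 groups. The lowest mouse stood apart for Gria2 in NC ad lib HC zt15 (replicate 6, 232 CPM, next 311), for Gria3 in HFS ad lib ORM+12 h (replicate 1, 100 CPM, next 126), for Cnih3 in HFS TRF HC zt3 (replicate 5, 84.3 CPM, next 99.5), for Cacng3 in NC ad lib ORM+12 h (replicate 4, 52.1 CPM, next 76.8) and for Cacng8 in HFS TRF ORM+1 h (replicate 3, 142 CPM, next 170). The highest stood apart for Cacng3 in NC ad lib HC zt3 (replicate 4, 99.6 CPM, next 81.9) and for Cacng8 in HFS TRF HC zt15 (replicate 3, 204 CPM, next 163).

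The training response differed between the late and the early time, by a test of the difference in edgeR, for Gria1 on NC ad lib (log2 difference 0.40) and for Cnih3 on HFS TRF (0.70).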

How the results depend on the processing

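The early comparison gave 0 member calls under each of the 9 alternatives and with each mouse left out in turn. The 2 late calls became 6 with the DESeq2 Wald test, 5 with a replicate block within condition, 4 with only the groups compared, 1 with the choroid plexus covariate, 0 without the mice above 5000 CPM of its markers and 1 to 4 with 1 mouse left out. The 2 late-minus-early calls became 5, 4, 4, 1, 0 and 1 to 4 in the same order, 1 with genes of at least 1 count in total and 4 with filterByExpr. For diet by training the 0 became 1 with DESeq2 and with the block within condition, and 0 to 1 with 1 mouse left out. For HC zt15 against HC zt3 the 1 became 3 with the block within condition, 2 with only the groups compared, 0 without those mice and 0 to 2 with 1 mouse left out. For diet at a matched condition the 1 became 4 with the block within condition, 0 with DESeq2 size factors, genes of at least 1 count, only the groups compared, the covariate or those mice left out, and 0 to 1 with 1 mouse left out. The cause was not tested.

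A fit with the replicate number as a block gave 0 early, 2 late, 2 late-minus-early, 0 diet by training, 1 night and 1 diet calls. In none of the 17 pairs of groups did each same-numbered pair of mice correlate above 0.1. The highest median r of same-numbered mice was 0.42, for HFS TRF and HFS ad lib at ORM+1 h, beside -0.22 for other numbers. Whether some same-numbered mice were handled together was not tested. At most 3 of 6 mice correlated best with their own number.

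Signs that turned were all of uncalled values. Early values became -0.014 for Gria2 on NC ad lib (filterByExpr), 0.0027 for Gria3 on NC ad lib (at least 1 count) and -0.0011 for Cacng2 on HFS TRF (replicate block). With the covariate, early Gria3 became 0.0134 on NC ad lib, early Cacng2 -0.011 on HFS TRF, and late Cacng3 -0.0138 on NC ad lib and 0.0163 on HFS ad lib. Without the mice above 5000 CPM, early values became 0.0801 for Gria3 and 0.0328 for Gria4 on NC ad lib, 0.026 for Gria3 and 0.0423 for Cacng3 on HFS ad lib, and 0.008 for Cnih2 and -0.0451 for Cacng2 on HFS TRF. Late values became -0.009 for Cnih2, -0.0145 for Cnih3, -0.0822 for Cacng2 and -0.0749 for Cacng3 on NC ad lib, and 0.0161 for Gria3 on HFS ad lib.

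Over all genes, late calls numbered 63 on NC ad lib, 54 on HFS ad lib and 741 on HFS TRF, and in this order 303, 252 and 1691 with DESeq2, 4, 54 and 201 with the covariate, and 0, 29 and 1 without those mice. That omission left 2 mice in HFS TRF HC zt15 and 3 in each of NC ad lib HC zt15 and HFS ad lib ORM+12 h. With 1 mouse left out they ran from 7 (without HFS TRF HC zt15 replicate 4) to 1020 on HFS TRF, from 0 to 694 on HFS ad lib and from 1 to 249 on NC ad lib. Each member had at least 1139 reads in a mouse.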
